A study of Mus musculus with 8 samples.

Results

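The genes described here are 10 genes of lipid droplet biology: the nuclear receptor gene Pparg, the CIDE genes Cidea, Cideb and Cidec, the perilipin genes Plin2, Plin4 and Plin5, the lipase gene Pnpla2, and the lipase inhibitor genes G0s2 and Hilpda. Every probe set that the array's annotation paired with a single one of these genes was taken, which gave 12 probe sets for 10 of the 18193 genes named on the array. Of these genes, 8 had 1 probe set, and Plin5 and Pnpla2 had 2 each. Expression was measured in liver of knockout (Pemt-/-) and wild-type (Pemt+/+) mice, where Pemt encodes the enzyme that methylates phosphatidylethanolamine to phosphatidylcholine. Both genotypes were fed the high fat-high sucrose (HFHS) diet, and 1 array per genotype was hybridised at 1, 2, 3 and 4 weeks, which gave 4 arrays per genotype and 8 in all. The methods describe male mice and give no age for these samples, and they give 4 mice per genotype without saying how these were divided among the arrays. No array of mice on standard chow was analysed here, and the knockout and the wild type share the diet at every week. No week had replicate arrays of a genotype among those analysed. In the main fit, the p-values of the genotype difference measure the spread of that difference between the weeks. Those of the slopes measure the scatter of the arrays about a straight line within each genotype.

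Hepatocytes store triglyceride in lipid droplets, whose surface is coated by proteins that govern how droplets grow and how their fat is broken down. Perilipins shield the droplet or dock lipases on it, CIDE proteins act where droplets touch and pass lipid from one to another, and the lipase encoded by Pnpla2 (ATGL) takes the first step of triglyceride breakdown. PPAR gamma, the product of Pparg, is the main regulator of fat storage in adipocytes, where Cidec is one of its targets, and both are known to rise in fatty liver of mice.

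Pparg and Cidec were several-fold higher in Pemt-/- liver at each of the 4 weeks, Hilpda was 1.79-fold higher over the weeks, and no member gene was lower by the test. The Plin2, Plin5, Cideb and Pnpla2 values of both genotypes overlapped. G0s2 was higher in the knockout at week 1 and lower at weeks 2, 3 and 4. Of the 12 probe sets, 11 from 9 genes passed the filter on dim values, which asked for a mean level over the 8 arrays above an intensity of 45.5, and Cidea did not. In the fit of log2(intensity + 16) with the week as a block, 3 of the 11 probe sets passed an adjusted p under 0.05 in the higher direction and 0 in the lower. Over all 27022 probe sets tested, 10.3% were called higher and 5.86% lower, and over the 12949 genes at their brightest probe set 12.6% were higher and 7.51% lower. The median log2 difference was -0.02 over the 11 probe sets and 0.02 over all probe sets tested. The same 3 probe sets were those with all knockout arrays above all wild-type arrays, a pattern that 12.8% of all probe sets tested showed.

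**Figure D1:**
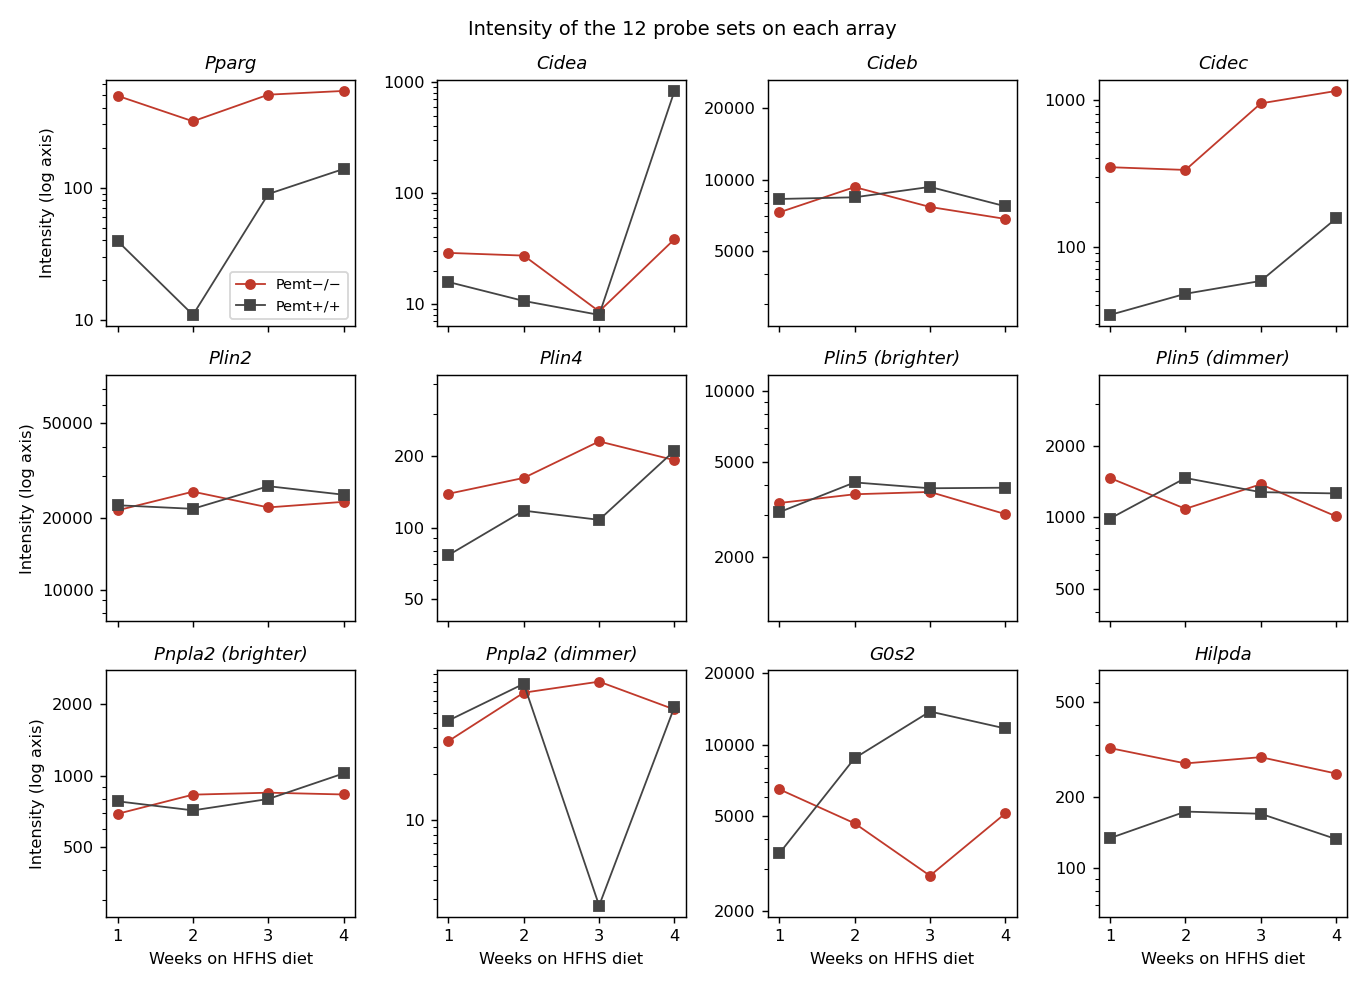
Each panel plots the deposited intensity (log axis) of 1 probe set against the weeks on HFHS diet, with 1 array per point, circles for Pemt-/- and squares for Pemt+/+. The lines of Pparg, Cidec and Hilpda stay apart at all 4 weeks, those of G0s2 cross between weeks 1 and 2, and Cidea has a single high point at 832 in Pemt+/+ at week 4.

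The targeted gene was lower in the knockout, with Pemt between 201 and 255 on the Pemt-/- arrays and between 4989 and 6045 on the Pemt+/+ arrays. The tissue differed in its cell markers between the genotypes. The summed intensity of 23 macrophage markers ran from 42437 to 80246 in Pemt-/- and from 17449 to 24383 in Pemt+/+, and 19 of the 22 tested were higher. The summed intensity of 16 stellate cell markers ran from 54518 to 74225 in Pemt-/- and from 20953 to 27079 in Pemt+/+, with 15 of 16 higher. On the Pemt+/+ arrays the macrophage markers Mmp12 (1.74 to 6.69) and Trem2 (6.44 to 23.4) were below the filter level throughout. They passed the filter through their Pemt-/- values, so the size of their differences is uncertain. The stellate cell markers Lox, Timp1 and Des were below that level on some Pemt+/+ arrays. Over all genes at their brightest probe set, 12.6% were higher and 7.51% lower. Of 18 hepatocyte markers 15 were lower, or 7 of 18 without week 4. In bulk liver, fewer cells of a type and less RNA per cell cannot be told apart, and the part of these shifts in the values of the member genes was not tested.

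The Pemt+/+ array of week 4 stood apart from the other 7. On it, 39 probe sets were above 200 and at least 5 times higher than on every other array, against 0 or 1 such probe sets on each of the others. The 4 defining adipocyte markers with a probe set (Adipoq, Retn, Adig and Lep) were all at their highest there, and their summed intensity was 2106 against 78.8 to 173 on the other arrays. Among genes chosen after their values were seen, 9 of 18 genes of the adrenal gland were at least 5 times above the next array, with the steroid enzyme gene Hsd3b1 at 6246 and at 11.8 to 63.7 elsewhere. The part of this array in the genotype differences below was not tested beyond the fits without week 4.

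Promoter sequence was available for 9 of the 10 genes, in 14 windows of RefSeq transcript starts on GRCm38.p6, and the 250 bases before each start were searched on both strands. The searched motifs were the direct repeat bound by PPAR and RXR pairs, which is 2 copies of AGGTCA with 1 base between and was allowed up to 2 mismatches, the single copy AGGTCA, which overlaps the repeat, and the core ACGTG of hypoxia response elements. They occurred in 3.24%, 14.0% and 16.6% of all 32851 windows. The member genes are given per gene, and a gene can have several windows, so they are not directly comparable with these shares. Among the member genes the direct repeat was matched in Plin2 only, the single copy in Plin2, Plin5 and Pparg, and the core in Hilpda only. The stretches below are shown because they hold these matches, except that of Plin5, in capitals, on the strand of the gene. The Plin2 repeat was matched on the opposite strand, so its capitals are the reverse complement of the motif. Cidec is shown, with no match, because its difference was the largest in the fit among the 11 probe sets. A match describes the letters and is not evidence of binding, and the absence of one covers these windows only.
Plin2, chr4:86670248-86670307, minus strand, direct repeat with 2 mismatches starting at base -225: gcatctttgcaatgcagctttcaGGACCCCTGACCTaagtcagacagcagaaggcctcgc
Pparg, chr6:115361104-115361133, plus strand, single copy starting at base -28: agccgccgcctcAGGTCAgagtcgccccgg
Pparg, second start, chr6:115362319-115362348, plus strand, single copy starting at base -9: ttttatataagggacgcgaggAGGTCAaga
Hilpda, chr6:29272571-29272600, plus strand, core starting at base -43: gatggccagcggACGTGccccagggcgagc
Cidec, last 30 bases before one start, chr6:113434765-113434794, minus strand: tctttagcactgacttcagcttctccactc
Cidec, last 30 bases before the other start, chr6:113435761-113435790, minus strand: acagaaataaaatggagggaagcctgggct

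Pparg measured 492, 316, 502 and 536 in Pemt-/- liver at weeks 1, 2, 3 and 4, and 39.6, 11, 89.5 and 138 in Pemt+/+ liver. The lowest knockout value lay above the highest wild-type value. The knockout arrays spanned 1.69-fold between the lowest and the highest, and the wild-type arrays 12.6-fold. The ratio of the genotypes was 12.4 at week 1, 28.8 at week 2, 5.61 at week 3 and 3.87 at week 4. The wild-type values of weeks 1 and 2 were below the filter level of 45.5, so the ratios of those weeks and the wild-type span rested on dim values and their size is uncertain. Over the 4 weeks Pparg was 6.67-fold higher in the knockout on the log2(intensity + 16) scale (log2 difference 2.74 ± 0.29 SE, adjusted p = 0.00108, limma). Without week 4 the log2 difference was 3.04 ± 0.28 (adjusted p = 0.00169). Because the wild-type level was dim, the size depended on the constant added before the logarithm, with a log2 difference of 3.19 at a constant of 1 and of 2.05 at 64, and the probe set passed the test at both.

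The promoter windows of Pparg with a single copy of AGGTCA are those of 2 of its 3 RefSeq starts, and the probe set did not separate transcripts by start. The change of Pparg per week was 0.10 ± 0.22 (SE) log2 units in Pemt-/- (adjusted p = 0.944) and 0.64 ± 0.22 in Pemt+/+ (adjusted p = 0.832). The difference of these slopes was -0.54 ± 0.31 (adjusted p = 0.823) and did not pass the test.

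The genes whose profile over the 8 arrays was nearest to that of Pparg were sought among the other 12940 genes, by the root mean square difference of log2 values centred on each gene's mean. They were Gstm3 at 0.51, Stk10 at 0.52, Nrg1 at 0.54, Timp1 at 0.59 and Zbtb45 at 0.60 log2 units. Timp1, an inhibitor of matrix proteases, is also one of the stellate cell markers. Cidec was the nearest member gene, at 0.65, and Hilpda and Plin4 followed at 1.22 and 1.27. The other member genes tested lay between 1.52 for Pnpla2 and 1.96 for G0s2.

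Cidec encodes the CIDE protein that enlarges droplets in white adipocytes by passing lipid from small to large ones. It measured 347, 332, 942 and 1145 in Pemt-/- liver at weeks 1 to 4, and 34.4, 47.8, 58.5 and 156 in Pemt+/+ liver. The genotypes did not overlap, and within each genotype the arrays of weeks 3 and 4 were above those of weeks 1 and 2. The ratio was 10.1, 6.95, 16.1 and 7.36 at the 4 weeks, and the wild-type value behind the first of these was below the filter level. Cidec was 7.65-fold higher in the knockout over the 4 weeks (log2 difference 2.94 ± 0.21 SE, adjusted p = 0.000392, limma), and without week 4 the log2 difference was 2.99 ± 0.27 (adjusted p = 0.00161). It was 3.23 with a constant of 1 added before the logarithm and 2.35 with 64, and passed the test with both.

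The fitted change of Cidec over the diet was 0.65 ± 0.14 (SE) log2 units per week in Pemt-/- and 0.55 ± 0.14 in Pemt+/+, and neither slope passed the adjustment over all probe sets (adjusted p = 0.135 and 0.690). Without the Pemt+/+ array of week 4, which stood apart, the wild-type slope was 0.28 ± 0.21. The difference of the slopes was 0.10 ± 0.20 (adjusted p = 0.974).

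Cideb, the CIDE gene of normal hepatocytes with a role in the lipidation of very low density lipoprotein, measured 7286, 9309, 7679 and 6837 in Pemt-/- and 8294, 8432, 9325 and 7728 in Pemt+/+. The values overlapped and the ratio stayed between 0.823 and 1.10. The log2 difference was -0.13 (95% confidence interval -0.35 to 0.10, adjusted p = 0.425, limma). The name of this probe set ends in s_at, as does that of the brighter Plin5 probe set, a class whose probes can match more than a single transcript.

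Cidea, the CIDE gene of brown adipocytes, measured 28.9, 27.4, 8.59 and 38.5 in Pemt-/- and 15.8, 10.7, 8.0 and 832 in Pemt+/+. On 7 of the 8 arrays it was below the filter level of 45.5, and the exception was the Pemt+/+ array of week 4, against a next highest value of 38.5. The brown adipocyte genes Ucp1, at 654, and Cox8b, at 808, were highest on the same array, and lay between 3.40 and 8.04 and between 3.11 and 44.9 on the others. These genes were picked after the values had been seen, and of 8 brown adipocyte genes with a probe set 3 were highest there, while Prdm16 and Zic1 were not. Without a filter the log2 difference of Cidea was -0.68 ± 0.71 SE (adjusted p = 0.635, limma), and it turned to 0.41 ± 0.31 without week 4 (adjusted p = 0.571). The direction of Cidea was thus set by 1 array.

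**Figure D2:**
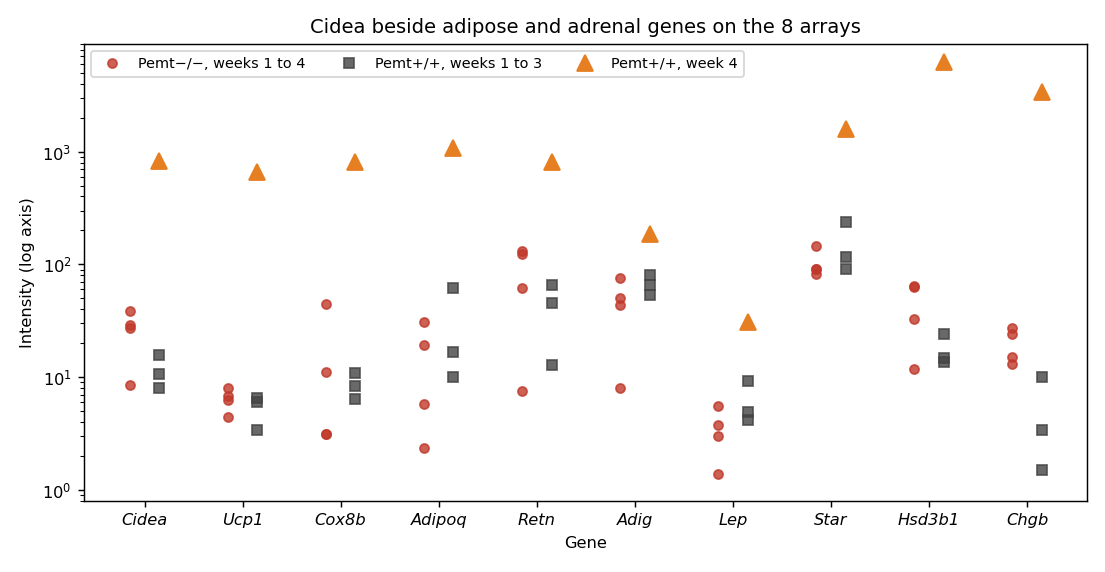
Intensity (log axis) of Cidea, 2 brown adipocyte genes, the 4 defining adipocyte markers and 3 adrenal genes on each of the 8 arrays, with circles for Pemt-/-, squares for Pemt+/+ at weeks 1 to 3 and a triangle for Pemt+/+ at week 4. The triangle is the highest point of all 10 genes, with Cidea at 832 against at most 38.5 on the other arrays. The brown adipocyte and adrenal genes plotted were picked because they were seen to be high there. Of the genes with a probe set on those lists, 3 of 8 brown adipocyte genes and 14 of 18 adrenal genes were highest on that array.

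Plin2, the perilipin that coats droplets in most cells including hepatocytes, measured 21550, 25823, 22167 and 23402 in Pemt-/- and 22638, 21870, 27231 and 25071 in Pemt+/+. The highest array was 1.20 times the lowest in Pemt-/- and 1.25 times in Pemt+/+, and the values overlapped. The log2 difference was -0.06 (95% confidence interval -0.29 to 0.17, adjusted p = 0.745, limma), and the ratio at single weeks ran from 0.814 to 1.18. After quantile normalization the log2 difference was 0.21 (adjusted p = 0.0733), in the other direction.

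Plin4, a perilipin best known from white adipocytes and muscle, measured 139, 162, 230 and 192 in Pemt-/- and 76.5, 118, 108 and 211 in Pemt+/+. The knockout was higher at weeks 1, 2 and 3, by ratios of 1.81, 1.37 and 2.14, and the ratio at week 4 was 0.912. The log2 difference of 0.51 ± 0.22 SE did not pass the test (adjusted p = 0.150, limma). Without week 4, whose wild-type array had the defining adipocyte markers at their highest, it was 0.72 ± 0.23 and did not pass either (adjusted p = 0.103).

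Plin5 encodes the perilipin of oxidative tissues that docks the lipase and links droplets to mitochondria. Its brighter probe set measured 3372, 3670, 3754 and 3028 in Pemt-/- and 3085, 4117, 3890 and 3911 in Pemt+/+. The dimmer one measured 1461, 1085, 1376 and 1008 in Pemt-/- and 987, 1462, 1275 and 1259 in Pemt+/+. Both sets overlapped between the genotypes, with log2 differences of -0.11 (95% confidence interval -0.35 to 0.12) and -0.02 (-0.39 to 0.35), and neither passed the test (adjusted p = 0.505 and 0.953, limma). Without week 4 the dimmer one was at 0.08 (adjusted p = 0.845).

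Pnpla2, the lipase gene, measured 692, 834, 850 and 835 in Pemt-/- and 782, 716, 799 and 1024 in Pemt+/+ in its brighter probe set. The log2 difference was -0.04 (95% confidence interval -0.32 to 0.24, adjusted p = 0.862, limma), and 0.04 without week 4 (adjusted p = 0.901). The dimmer probe set measured 32.8, 68.1, 80.5 and 52.8 in Pemt-/- and 44.7, 77.9, 2.74 and 55.1 in Pemt+/+, close to the filter level. Its ratio of 29.4 at week 3 rested on the single wild-type value of 2.74, and its log2 difference of 0.46 ± 0.46 SE did not pass the test (adjusted p = 0.540) and was -0.17 without week 3.

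G0s2, whose product binds the lipase and blocks it, measured 6493, 4667, 2808 and 5136 in Pemt-/- and 3484, 8777, 13797 and 11705 in Pemt+/+. The wild-type values of weeks 2, 3 and 4 lay above all 4 knockout values, and the wild-type value of week 1 lay below 3 of them. The ratio was 1.86 at week 1 and 0.532, 0.204 and 0.439 at weeks 2, 3 and 4. Over the 4 weeks the log2 difference was -0.87 ± 0.40 SE and did not pass the test (adjusted p = 0.174, limma). Without week 1 it was -1.46 ± 0.25 and passed (adjusted p = 0.0189).

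The slope of G0s2 over the weeks was 0.59 ± 0.17 (SE) log2 units in Pemt+/+ and -0.17 ± 0.17 in Pemt-/-. Their difference of -0.76 ± 0.23 was the only one among the 11 member probe sets with an unadjusted p under 0.05, and its adjusted p in limma was 0.627. Without the wild-type array of week 4 it was -1.16 ± 0.25 (adjusted p = 0.75). Slopes differed between the genotypes by the adjusted threshold in 0 of the 27022 probe sets, or 0%, in limma, and 1818 had an unadjusted p under 0.05.

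Hilpda, a hypoxia-inducible droplet protein that also inhibits the lipase, measured 320, 276, 294 and 250 in Pemt-/- and 134, 173, 170 and 133 in Pemt+/+. The genotypes did not overlap, and within each the arrays differed by at most 1.31-fold. The ratio was 2.39 at week 1, 1.59 at week 2, 1.73 at week 3 and 1.89 at week 4. Hilpda was 1.79-fold higher in the knockout (log2 difference 0.84 ± 0.16 SE, adjusted p = 0.00949, limma), and the log2 difference was 0.84 ± 0.20 without week 4 (adjusted p = 0.0393). With no filter on dim probe sets and without week 4 together, the adjusted p was 0.0870. The slope difference was -0.09 ± 0.14 (adjusted p = 0.957).

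**Figure D3:**
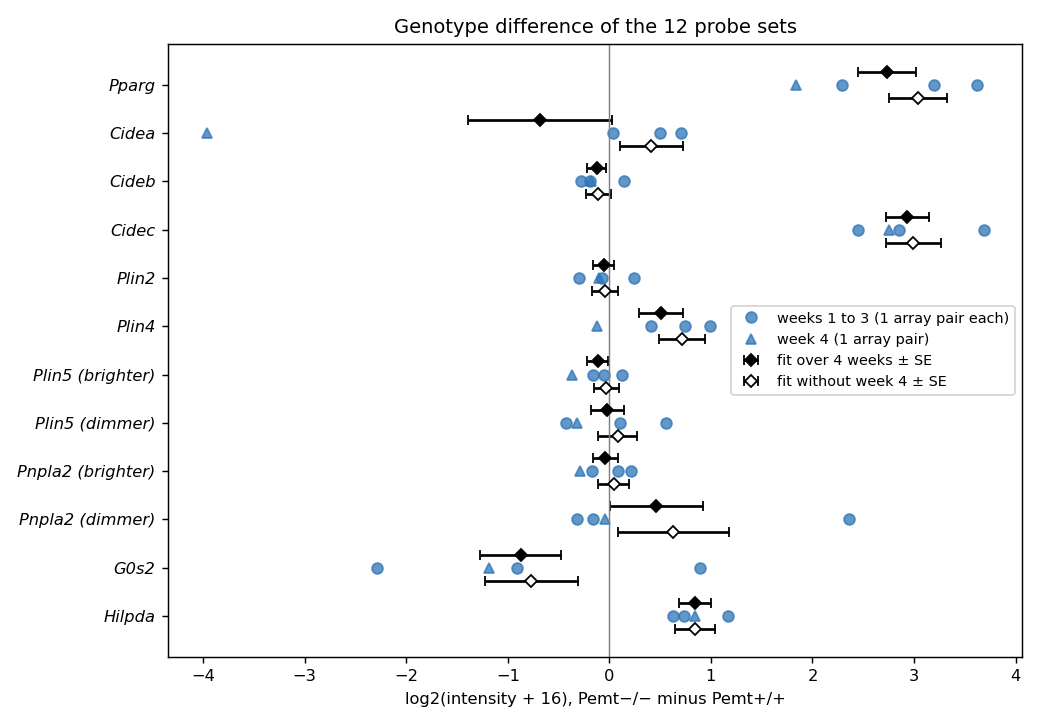
Difference of log2(intensity + 16), Pemt-/- minus Pemt+/+, for the 12 probe sets, with circles for the array pairs of weeks 1 to 3, triangles for week 4, filled diamonds for the fit over 4 weeks and open diamonds for the fit without week 4, both ± SE (Cidea fitted without a filter). All 4 weekly points of Pparg, Cidec and Hilpda lie above 0, and the week 4 point of Cidea lies at -3.96.

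At the ratio limits of the methods, 2 or more and 0.5 or less with no test, member probe sets passed as follows. At week 1, 3 of the 12 were at 2 or more (Pparg, Cidec and Hilpda) and 0 at 0.5 or less, against 13.3% and 14.2% of all 45037 probe sets. At week 2, 3 were at 2 or more (Pparg, Cidea and Cidec) and 0 at 0.5 or less, against 13.4% and 14.9%. The Cidea ratio of 2.56 at that week compared intensities of 27.4 and 10.7, both below the filter level.

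At week 3, 4 were at 2 or more (Pparg, Cidec, Plin4 and the dimmer Pnpla2 probe set) and 1 at 0.5 or less (G0s2), against 14.4% and 15.9%. At week 4, 2 were at 2 or more (Pparg and Cidec) and 2 at 0.5 or less (Cidea and G0s2), against 15.9% and 14.6%. Pparg and Cidec were the only member genes past a limit at all 4 weeks.

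The genes that work with the members were described by lists, with each gene at its brightest probe set and set beside the 12.6% of genes higher and 7.51% lower. Of the called genes named from these lists, the call held in 1 of 2 probe sets for Hsd17b13 and Dgat2, in 1 of 3 for Higd1a and in 3 of 5 for Aldoa, and in every probe set tested for the others. Among 23 other lipid droplet proteins tested, 2 were higher and 6 lower, with a median log2 difference of -0.15. Hsd17b13, a droplet enzyme of hepatocytes, was 1.32-fold higher (adjusted p = 0.0195, limma). Fitm1, which helps droplets form, was 1.66-fold lower (adjusted p = 0.0104), the phosphatidate phosphatase gene Lpin1 1.63-fold lower (adjusted p = 0.0105) and the sterol synthesis gene Nsdhl 1.93-fold lower (adjusted p = 0.0188). Without week 4, 0 of the 23 were higher and 2 lower (Fitm1, adjusted p = 0.0205, and Lpin1, adjusted p = 0.0363).

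Among 19 genes of triglyceride synthesis, 1 was higher and 4 were lower, with a median of 0.10. Gpat3, an acyltransferase of the first step of the pathway, was 2.91-fold higher (adjusted p = 0.00125, limma), and Dgat2, which completes triglyceride, was 1.41-fold lower (adjusted p = 0.00743; adjusted p = 0.0504 without week 4). Among 17 genes of lipolysis and lipophagy, 1 was higher and 5 were lower, with a median of -0.20. The higher one was the lipoprotein lipase gene Lpl, at 3.12-fold (adjusted p = 0.00742). Aadac and Ces1d, which encode lipid hydrolases of hepatocytes, were 1.58-fold (adjusted p = 0.00443) and 1.70-fold lower (adjusted p = 0.0114), and Ppara, the receptor that drives fatty acid oxidation, was 1.53-fold lower (adjusted p = 0.0103). Abhd5, the co-activator of the Pnpla2 lipase, was 1.51-fold lower (adjusted p = 0.0377; adjusted p = 0.123 without week 4). It is named outside the rule, after its value was seen. Without week 4 the median of the synthesis list was 0.16, and each of these lists had 1 call in each direction, Gpat3 (adjusted p = 0.00472) and Lpin1 for synthesis, and Lpl (adjusted p = 0.0231) and Aadac (adjusted p = 0.0233) for lipolysis.

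Among 21 partners and regulators of PPAR gamma, 0 were higher and 6 lower, with a median of -0.19. Cebpa, which acts with PPAR gamma in adipocytes and is also among the hepatocyte markers, was 1.72-fold lower (adjusted p = 0.00165, limma). The coactivator gene Ppargc1b was 1.83-fold lower (adjusted p = 0.00221), Srebf1, the regulator of fatty acid synthesis, 1.74-fold lower (adjusted p = 0.00294) and Klf15 1.54-fold lower (adjusted p = 0.00469). The 6 lower calls became 4 without week 4.

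Among 18 known targets of PPAR gamma outside the member genes, 3 were higher and 5 lower, with a median of -0.25. The paired targets Adipoq, Aqp7, Hcar2, Olr1 and Ucp1 did not pass the filter and were not tested. Of these, Aqp7 lay between 61.3 and 108 in Pemt-/- and between 0.442 and 28.0 in Pemt+/+. Adipoq and Ucp1 were highest on the Pemt+/+ array of week 4, and Hcar2 and Olr1 overlapped between the genotypes. Acot2, a mitochondrial thioesterase, was 3.90-fold higher (adjusted p = 0.000143, limma), the fatty acid transporter gene Cd36 3.50-fold higher (adjusted p = 0.000173) and Lpl 3.12-fold higher. Fabp5, a fatty acid carrier, was 2.25-fold lower (adjusted p = 0.00223). Fabp4, a carrier of adipocytes and macrophages, measured 1404 to 2110 in Pemt-/- and 794 to 1268 in Pemt+/+ at weeks 1 to 3, but 8641 on the Pemt+/+ array of week 4, where 7 of the 23 paired targets were at their highest. Fabp4 did not pass the test over the 4 weeks (adjusted p = 0.937, limma). Without week 4 its log2 difference was 0.77 and it passed in the higher direction (adjusted p = 0.0138). It was named after its values were seen. Without week 4, 4 targets were higher and 2 lower. Acot2 is also a known target of PPAR alpha, and Cd36 and Lpl are also expressed by macrophages, whose markers were higher in the knockout, and the part of those cells in these values was not tested.

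Among 21 targets of PPAR alpha, 3 were higher and 2 lower, with a median of 0.09. The higher ones were Acot2, the hormone gene Fgf21 at 7.87-fold (adjusted p = 0.00305, limma) and the pantetheinase gene Vnn1 at 2.07-fold (adjusted p = 0.00368), and Creb3l3, a liver transcription factor, was 1.28-fold lower (adjusted p = 0.0209). Fgf21 ranged from 494 to 8313 in Pemt-/- and from 155 to 634 in Pemt+/+, so its genotypes overlapped. Without week 4 the median was 0.19, and 4 of the 21 were higher and 0 lower. Among 20 targets of hypoxia-inducible factors, to which Hilpda belongs, 3 were higher and 2 lower, with a median of 0.10. The glycolytic regulators Pfkfb3 and Pfkfb4 were 1.95-fold (adjusted p = 0.0109) and 1.83-fold higher (adjusted p = 0.0220), Aldoa was 1.49-fold higher (adjusted p = 0.0148) and the mitochondrial gene Higd1a was 1.34-fold lower (adjusted p = 0.0120). Without week 4 the median was 0.02, and 2 of the 20 were higher (Pfkfb3, adjusted p = 0.0258, and Aldoa, adjusted p = 0.0386) and 0 lower.

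**Figure D4:**
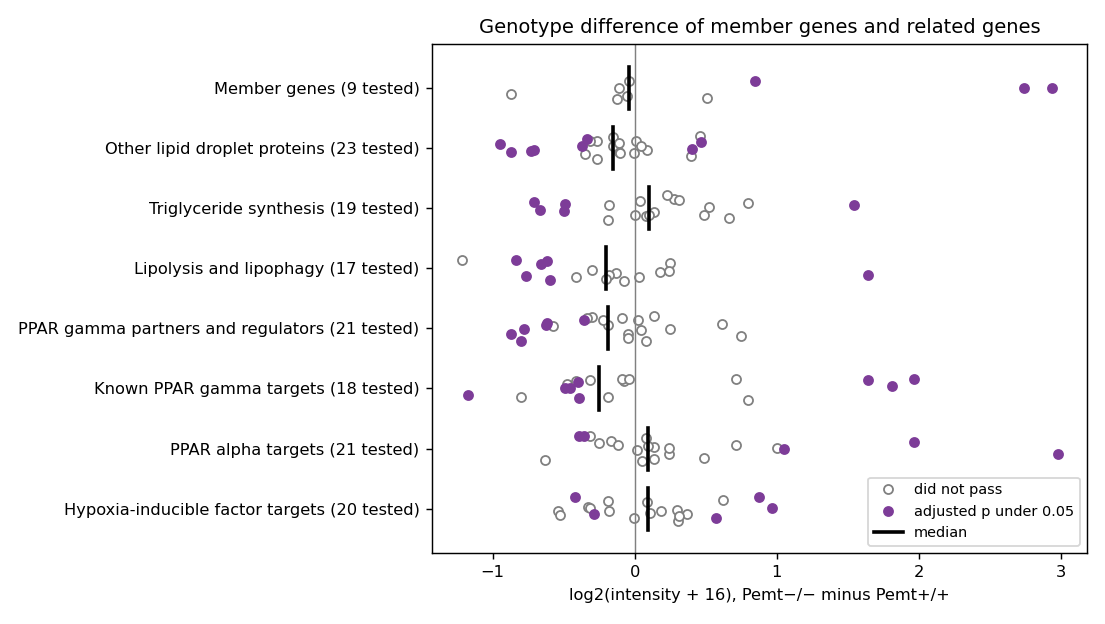
Difference of log2(intensity + 16), Pemt-/- minus Pemt+/+, of each gene tested at its brightest probe set, for the member genes and 7 lists (vertical offsets within a row only separate points). Filled points passed an adjusted p under 0.05, open points did not, and bars are medians, which lie between -0.25 for the known PPAR gamma targets and 0.10 for triglyceride synthesis and hypoxia targets.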

How the data were processed

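Biotin-labelled cRNA of 8 liver samples was hybridised to Affymetrix arrays. The authors deposited a linear intensity per probe set, made with Affymetrix Expression Console according to the submitters' processing notes. The version and the probe summary method were not given in the sources used here, and detection calls were not used. With 2% of the probe sets trimmed from each end, the mean intensity was 500.0 on all 8 arrays, as follows from scaling by the authors. The 64 control probe sets were removed. Of the remaining 45037, the annotation paired 34945 with 1 gene and 932 with several, and 9160 were unnamed here.

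Intensities were transformed as log2(intensity + 16), which understates the change of dim probe sets. The 27022 probe sets with a mean above the 40th percentile were tested in R 4.3.3 with the functions lmFit and eBayes (trend in intensity) of limma 3.58.1. The model held the week as a factor and the genotype, the test was two-sided, and p-values were adjusted over all probe sets by the Benjamini-Hochberg method. For slopes the week entered each genotype as a number. The fits were tested on data simulated with independent normal noise. No simulated array stood apart as the Pemt+/+ array of week 4 did, so that test does not cover its effect. The number of arrays limits the precision. Plots were drawn with matplotlib 3.10.9 in Python 3.11.15. The text names all member genes, Pemt, up to 4 genes of the smallest p per list, the defining adipocyte markers and the 5 genes nearest to Pparg. Abhd5, Fabp4, Aqp7, Hcar2, Olr1, Trem2, Lox, Des and the brown adipocyte and adrenal genes were named after their values were seen. The member genes, lists and rules were chosen with earlier results of these data known. Alternatives were other filters, normalizations, pseudocounts and tests, and leaving out each week.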

Additional observations from a re-analysis of the deposited data

Results flagged for a closer look

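A single array lay far from the other 3 of its genotype in 3 of the 24 groups of 4 arrays examined (12 probe sets in each genotype, on the log2(intensity + 16) scale), where chance gives about 1 in 20. The measure is the gap between the extreme array and its nearest neighbour as a share of the range of the group. It was 0.921 for Cidea in Pemt+/+, high at week 4, 0.907 for the brighter Pnpla2 probe set in Pemt-/-, low at week 1, and 0.838 for Pparg in Pemt-/-, low at week 2.

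For 2 probe sets, the arrays of weeks 2, 3 and 4 all moved away from week 1 in one direction in Pemt-/- and in the other in Pemt+/+. G0s2 was below its week 1 value at all 3 later weeks in the knockout and above it in the wild type, with a difference in change per week of -0.76 log2 units (adjusted p = 0.627, limma). The dimmer Plin5 probe set showed the same pattern with a difference of -0.21 (adjusted p = 0.834), while the brighter Plin5 probe set did not. The opposite moves from week 1 were not tested as such, and week 1 was 1 array per genotype.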

How the results depend on the processing

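The higher calls of Pparg, Cidec and Hilpda held under every alternative run singly. The whole table moved more. The 2788 higher and 1584 lower probe sets became 1715 and 633 without the intensity trend. They became 1636 and 875 by the methods' t-test after Benjamini-Hochberg adjustment, and 4516 and 3348 at its unadjusted threshold. With arrays centred on the median of the probe sets tested, an alternative chosen after seeing the data, lower calls became 3280, the share of calls that were higher went from 63.8% to 37.6%, and the median log2 difference of all probe sets moved to -0.14. Leaving out 1 week gave 1334 to 2942 higher (1334 without week 3, 1463 without week 4) and 484 to 1851 lower (921 without week 1, 484 without week 3, 577 without week 4). Lower member genes numbered 0 or 1, G0s2 without week 1. The week as a replicate block changed no member call: without it 2909 probe sets were higher and 1710 lower. Deviations of arrays of the same week correlated at -0.03 to 0.11, so the week numbers were not shown to pair the arrays.

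Values that changed direction were all uncalled. For the genotype difference they were Cideb (0.018) and Plin2 (0.21) after quantile normalization and Pnpla2 as the mean of its probe sets (0.21). When 1 week was left out they were Plin2 (-0.16 to 0.023), the dimmer Plin5 (-0.21 to 0.12), the brighter Pnpla2 (-0.12 to 0.043), the dimmer Pnpla2 (-0.17 to 0.72) and Cidea with no filter (-1.14 to 0.41). For the difference in change per week they were Cidec at a pseudocount of 1 (-0.00643), Pnpla2 as the mean of its probe sets (0.14) and the brighter Pnpla2 without the Pemt+/+ array of week 4 (0.07). With 1 week, or the Pemt+/+ array of week 4 alone, left out they were Cidec (-0.0038 to 0.42), Plin4 (-0.29 to 0.13), the dimmer Plin5 (-0.31 to 0.055), the brighter Pnpla2 (-0.25 to 0.13) and Hilpda (-0.25 to 0.11). With 1 array per genotype and week, differences within a week had no replicate check, and values below the filter level, such as those of Cidea, are uncertain.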
